A study of Homo sapiens with 9 samples.

Results

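The 47 autophagy machinery genes described here encode the proteins that start, expand, load and close the autophagosome and then join it to the lysosome. They were a list of symbols chosen with earlier results of these data known, so their counts beside all-gene shares are description only. Matching the Ensembl identifiers of the deposited tables to GENCODE 29 found all 47 among the 58735 genes of the count table. Of these, 46 passed the filter on low counts. MAP1LC3A, which encodes an LC3 protein, had a count of 0 in all 9 libraries and was not tested. Low counts in the table are nearly all multiples of 4, so 3 fragments of 4 counts each were taken as the limit that a count of 0 allows. That limit is 0.236 to 0.316 counts scaled to 1000000 per library (CPM) across the libraries, and it covers counting error only. The list was ordered by step: 12 genes of initiation, 8 of the phagophore membrane, 15 of the conjugation of ATG8 proteins, 6 cargo receptors and 6 genes of fusion with the lysosome.

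RNA was sequenced from the human line HEK293T, derived from embryonic kidney and expressing SV40 large T antigen. All 3 groups were transfected with a Silencer Select siRNA at 10 nM by Lipofectamine RNAiMAX and harvested after 36 h. Control cells received a negative control siRNA, the second group an siRNA against PHF12 and the third an siRNA against SUDS3, with 3 libraries per group. PHF12 and SUDS3 are subunits of SIN3 histone deacetylase complexes. Each target was met by 1 siRNA in 1 cell line, so an effect of the target and an effect of that siRNA on other transcripts cannot be told apart. Whether libraries of a group came from separate cultures is not in the labels. The p-values therefore measure only the spread between libraries, which may be technical. RNA was taken from bulk cultures, in which fewer cells with a transcript and less of it per cell cannot be told apart.

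In autophagy a membrane sheet, the phagophore, grows around cytoplasm or a marked cargo and closes into an autophagosome, which then fuses with a lysosome. The ULK kinase complex and the class III phosphatidylinositol 3-kinase complex start the process. WIPI and ATG2 proteins bring lipid to the growing sheet, a ubiquitin-like conjugation system attaches ATG8 proteins (the LC3 and GABARAP families) to it, receptors bind cargo to ATG8, and tethers and SNAREs carry out fusion.

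The targeted genes were measured first. PHF12 was at 50.3, 50.5 and 48.8 CPM in the control libraries and at 27.9, 24.5 and 28.3 CPM in cells given the PHF12 siRNA, so 53.9% was left (log2 fold change -0.89, edgeR adjusted p = 1.88e-14). SUDS3 was at 107, 114 and 112 CPM in the controls and at 21.1, 22.3 and 22.9 CPM with the SUDS3 siRNA, so 19.9% was left (log2 fold change -2.33, edgeR adjusted p = 1.82e-28). The groups did not overlap for either gene. The PHF12 siRNA group had a SUDS3 level of 81.0 ± 0.784 CPM (SD, n = 3), which was also a fall (log2 fold change -0.46, edgeR adjusted p = 6.83e-10). PHF12 rose with the SUDS3 siRNA, from 49.9 ± 0.938 to 61.5 ± 1.73 CPM (log2 fold change 0.30, edgeR adjusted p = 7.19e-05).

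Library totals ran from 37962926 to 50946148 counts, of which 4.98% to 5.67% were mitochondrial. Of 6 markers of the line, VIM (453 TPM in controls), NEFM (218), KRT18 (87.1), NEFL (70.0) and KRT8 (9.92) were present, while PAX2 was at 0.943 TPM. Among 12 markers of fibroblasts, leukocytes and hepatocytes, COL1A1 had the highest control level, 4.13 TPM, and PTPRC and CD3E were at 0. Markers moved with the knockdowns: COL1A1 rose with either siRNA (0.55 with PHF12 and 0.82 with SUDS3), KRT8 rose with PHF12 and fell with SUDS3 (0.83 and -0.61), as did VIM (0.16 and -0.32), and NEFM fell with PHF12 and rose with SUDS3 (-0.22 and 0.40). KRT18 fell (-0.22) and NEFL rose (0.32) with the PHF12 siRNA. The part of these changes in the members' results was not tested.

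Levels were compared between genes on a length-scaled measure, TPM, recomputed from the counts and the annotated exonic length and summing to 1000000 per library. Over all 9 libraries, WDR45B (146 TPM), GABARAPL2 (143 TPM) and SQSTM1 (96.9 TPM) had the highest means of the 47 genes. In controls WDR45B, a WIPI-family protein that binds phosphatidylinositol 3-phosphate, was at 134 ± 5.13 TPM and GABARAPL2, a GABARAP-family ATG8 protein, at 139 ± 3.8 TPM (SD, n = 3), a gap within their spread. After SQSTM1, which encodes the p62 cargo receptor, came RB1CC1 (71.3 TPM), TAX1BP1 (67.3), ATG4C (64.1), ATG3 (60.5) and BECN1 (56.5), all means over 9 libraries. At the low end of the tested genes were EPG5 (6.5 TPM), ULK2 (6.39), TBC1D5 (5.01) and ATG10 (4.3). The plot of length-scaled level by library shows all 46 genes with reads.

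**Figure D1:**
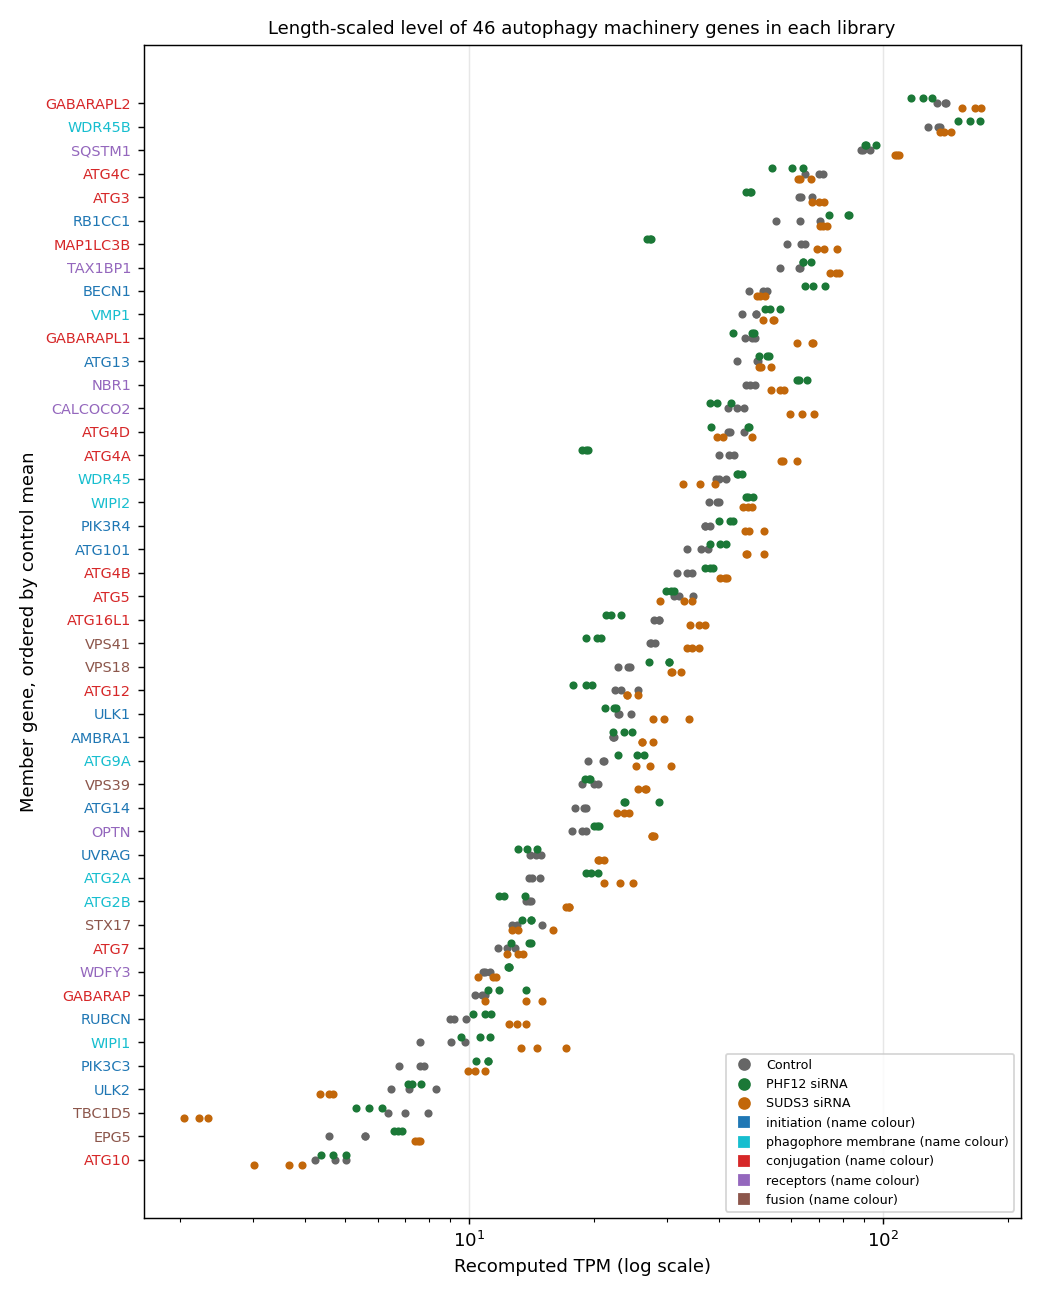
Recomputed TPM (log axis) of the 46 members with reads, 1 row per gene ordered by the control mean, with 1 point per library: grey for control, green for PHF12 siRNA and orange for SUDS3 siRNA. In the rows of MAP1LC3B and ATG4A the 3 green points lie apart to the left of the others, and in the rows of TBC1D5 and ULK2 the 3 orange points do.

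With the PHF12 siRNA, the members split by step. Genes of initiation and of the phagophore membrane mostly rose, and falls outnumbered rises in the conjugation step. The wider list of other autophagy genes, given below, did not split by step in this way. Of 46 tested members, 20 rose, 11 fell and 15 did not pass, at a Benjamini-Hochberg adjusted p under 0.05 in edgeR's quasi-likelihood test. Among all 18088 genes tested, 14.8% rose and 17.1% fell. Among the 4119 protein-coding genes with an average log2 CPM between the members' quartiles (5.03 and 6.59), 22.3% rose and 26.9% fell. The members' median log2 fold change was 0.12, against -0.00 over all genes and -0.00 over those protein-coding genes. Initiation had 8 rises, no fall and a median of 0.18, the phagophore membrane 6 rises, 1 fall and 0.28, and conjugation 1 rise, 7 falls and -0.12. Receptors had 3 rises and 1 fall with a median of 0.13, and fusion 2 rises and 2 falls with a median of 0.01. All 20 rises and 10 of the 11 falls had their 3 PHF12 siRNA libraries wholly on 1 side of the 3 controls. This was not counted over all called genes, so it adds no support to the calls.

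With the SUDS3 siRNA, most members rose and 4 fell, and rises outnumbered falls in each of the 5 steps. Of 46 tested, 29 rose, 4 fell (ULK2, WDR45, ATG10 and TBC1D5) and 13 did not pass, against 19.6% of all genes that rose and 19.2% that fell. In the protein-coding genes of matched level, 37.1% rose and 22.9% fell. The members' median log2 fold change was 0.24, against -0.02 over all genes and 0.06 over the genes of matched level. The counts of rises and falls were 9 and 1 in initiation (median 0.31) and 5 and 1 in the phagophore membrane (0.25). Conjugation had 6 and 1 (0.13), from 3 and 0 of 4 tested ATG8 genes (0.23) and 3 and 1 of 10 enzymes (0.02). Receptors had 5 and 0 (0.26) and fusion 4 and 1 (0.32). Libraries did not overlap the controls for 28 of the 29 rises and for all 4 falls, again not counted over all called genes. The exception was RB1CC1.

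Both comparisons use the same 3 control libraries, so the difference between the knockdowns was also tested directly. Of 46 members, 21 were higher and 9 lower with the SUDS3 siRNA than with the PHF12 siRNA, and 16 did not pass, against 22.7% of all genes higher and 21.1% lower. In the protein-coding genes of matched level, 40% were higher and 24.7% lower. The median was 0.10, against -0.01 over all genes and 0.07 over the genes of matched level. With upper-quartile scaling in place of TMM, 17 members were higher and 15 lower. Conjugation held 7 of the 21 higher members and 1 of the 9 lower ones, with a median of 0.19. Initiation, with 5 higher and 3 lower, had a median of 0.03. The plot of fold changes by step shows all 46 tested genes in the 3 comparisons.

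**Figure D2:**
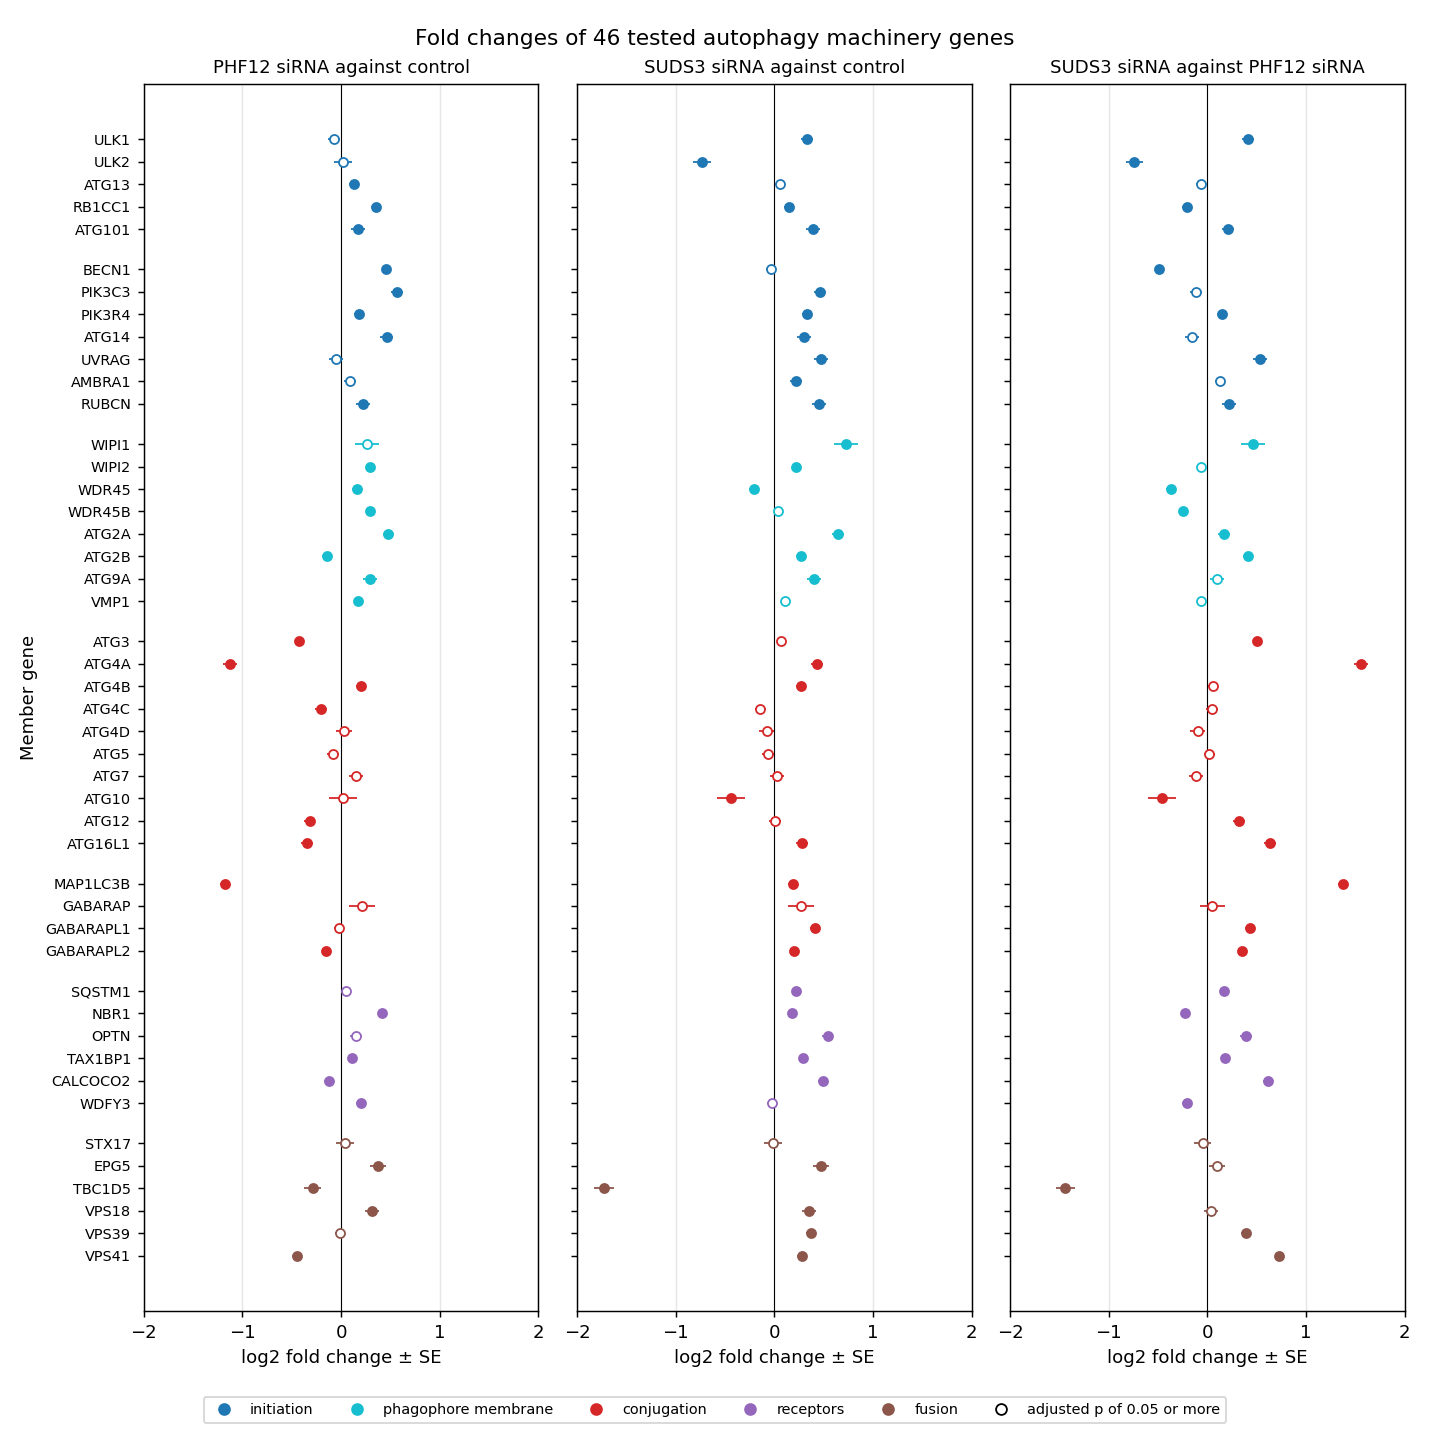
Log2 fold change with standard error (horizontal axis) of each of the 46 tested members (rows, grouped and colored by step) for PHF12 siRNA against control, SUDS3 siRNA against control and SUDS3 siRNA against PHF12 siRNA. Filled points have an edgeR adjusted p under 0.05. MAP1LC3B (-1.18) and ATG4A (-1.13) lie far to the left in the first panel and far to the right in the third (1.37 and 1.56). TBC1D5 lies far to the left in the second (-1.73) and in the third (-1.44).

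Of the 12 initiation genes, ULK2 alone fell against control, and it fell with the SUDS3 siRNA. The ULK1 complex joins the kinases ULK1 and ULK2 to ATG13, ATG101 and the scaffold RB1CC1. ULK2 (chromosome 17, 19770829 to 19867936, minus strand, GRCh38) was at 18.7, 20.2 and 23.3 CPM in controls, at 20.4, 21.9 and 20.7 CPM with the PHF12 siRNA and at 12.1, 12.6 and 12.9 CPM with the SUDS3 siRNA. The SUDS3 siRNA libraries were all below every other library, while PHF12 siRNA and control libraries overlapped. ULK2 fell to 60.5% of control with the SUDS3 siRNA (log2 fold change -0.73, SE 0.09, edgeR adjusted p = 5.01e-08), and its log2 fold change with the PHF12 siRNA was 0.02 (edgeR adjusted p = 0.915). ULK1, the paralogous kinase, rose with the SUDS3 siRNA, from 51.6 ± 1.47 to 64.9 ± 6.57 CPM (SD, n = 3; log2 fold change 0.33, edgeR adjusted p = 2.24e-05), and with the PHF12 siRNA its level was 49.0 ± 1.54 CPM (log2 fold change -0.07, edgeR adjusted p = 0.391).

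RB1CC1, also known as FIP200, had the highest length-scaled level of the initiation genes. Its control libraries were at 123, 138 and 153 CPM, the PHF12 siRNA libraries at 164, 182 and 183 CPM and the SUDS3 siRNA libraries at 151, 152 and 156 CPM. It rose with the PHF12 siRNA (log2 fold change 0.35, SE 0.05, edgeR adjusted p = 3.77e-07), with no overlap. The rise with the SUDS3 siRNA was small (0.15, edgeR adjusted p = 0.0165), its libraries overlapped the highest control, and without control library 1 it was 0.07 with an adjusted p of 0.257. Without control library 2 that adjusted p was 0.0548 and without SUDS3 siRNA library 3 it was 0.0918, and DESeq2 gave 0.146. ATG101 rose with either siRNA (0.17 with PHF12 and 0.39 with SUDS3). ATG13, the regulatory subunit, rose with the PHF12 siRNA (0.13) and was at 0.06 with the SUDS3 siRNA (edgeR adjusted p = 0.33). The call of ATG101 with the PHF12 siRNA was lost without control library 2 or PHF12 siRNA library 1 or 3 (adjusted p up to 0.218). That of ATG13 was lost without control library 1 or PHF12 siRNA library 2 or 3 (up to 0.209).

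The lipid kinase complex makes phosphatidylinositol 3-phosphate on the phagophore. Its 7 genes here held 5 rises and no fall with the PHF12 siRNA (median 0.22). Over all genes 14.8% rose and 17.1% fell with it, and at matched level 22.3% and 26.9%. With the SUDS3 siRNA the 7 genes held 6 rises and no fall (median 0.33). Over all genes 19.6% rose and 19.2% fell with that siRNA, and at matched level 37.1% and 22.9%. PIK3C3, the catalytic subunit VPS34, was at 30.2, 34.1 and 32.8 CPM in controls, at 46.2, 49.2 and 48.8 CPM with the PHF12 siRNA and at 42.5, 46.5 and 44.0 CPM with the SUDS3 siRNA. Every knockdown library was above every control. PIK3C3 rose with both (by 0.57, SE 0.06, edgeR adjusted p = 2.3e-09, and 0.46, SE 0.06, 2.64e-07, on the log2 scale), and the knockdowns did not pass against each other (-0.12, SE 0.06, edgeR adjusted p = 0.127). ATG14, the subunit that directs the kinase to autophagy, was at 26.7, 27.8 and 27.2 CPM in controls, at 35.1, 42.5 and 34.6 CPM with the PHF12 siRNA and at 32.5, 34.4 and 33.5 CPM with the SUDS3 siRNA. All 6 knockdown libraries lay above the controls, with 1 PHF12 siRNA library well above the other two. ATG14 rose with either siRNA (0.46, SE 0.07, edgeR adjusted p = 3.95e-06, and 0.30, SE 0.07, 0.00125).

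BECN1 and UVRAG each moved with 1 siRNA, and not the same one. BECN1, the beclin subunit shared by the kinase complexes, was at 89.4, 96.9 and 93.9 CPM in controls, at 121, 127 and 135 CPM with the PHF12 siRNA and at 91.4, 92.9 and 89.2 CPM with the SUDS3 siRNA. Only the PHF12 siRNA libraries stood apart (log2 fold change 0.45, SE 0.04, edgeR adjusted p = 2.28e-10), and the SUDS3 siRNA group was lower than the PHF12 siRNA group (log2 difference -0.49, edgeR adjusted p = 1.79e-11). BECN1 shares exonic bases with PSME3 on the opposite strand, a gene at 334 CPM in controls that fell with the PHF12 siRNA (-0.43). UVRAG, which takes the place of ATG14 in the endosomal form of the complex, was at 26.1, 27.2 and 26.3 CPM in controls, at 24.2, 27.0 and 25.5 CPM with the PHF12 siRNA and at 37.7, 36.2 and 36.7 CPM with the SUDS3 siRNA. Here only the SUDS3 siRNA libraries stood apart (0.47, SE 0.07, edgeR adjusted p = 7.08e-07). The difference between knockdowns was 0.53 (edgeR adjusted p = 4.86e-08). PIK3R4, the VPS15 subunit, rose by 0.18 and 0.33 with the PHF12 and the SUDS3 siRNA, and RUBCN, the inhibitor Rubicon, by 0.22 and 0.45. The 0.22 of RUBCN did not pass without control library 2 or PHF12 siRNA library 1 (adjusted p = 0.0804 and 0.0873). FYTTD1, which shares exonic bases with RUBCN on the opposite strand, was at 75.7 CPM in controls and fell with either siRNA (-0.37 and -0.76). AMBRA1, a beclin regulator, rose with the SUDS3 siRNA (0.22).

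Among the phagophore membrane genes, WIPI1 and ATG2A had the largest rises with the SUDS3 siRNA. WIPI1, a phosphatidylinositol 3-phosphate binding protein, was at 7.59, 9.6 and 8.76 CPM in controls, at 10.6, 11.1 and 9.45 CPM with the PHF12 siRNA and at 16.4, 12.7 and 13.9 CPM with the SUDS3 siRNA. The SUDS3 siRNA libraries were above all others (log2 fold change 0.73, SE 0.12, edgeR adjusted p = 4.54e-06), and PHF12 siRNA libraries overlapped the controls (0.26, SE 0.12, edgeR adjusted p = 0.09). ARSG, which shares exonic bases with WIPI1 on the opposite strand, fell with the SUDS3 siRNA (-0.77). ATG2A transfers lipid from the endoplasmic reticulum to the phagophore. Its level was 32.8, 31.5 and 33.3 CPM in controls, 43.8, 45.2 and 47 CPM with the PHF12 siRNA and 51.2, 54.6 and 46.8 CPM with the SUDS3 siRNA. It rose with both (0.48, SE 0.06, edgeR adjusted p = 1.03e-07, and 0.65, SE 0.06, 1.46e-10). ATG2B, its paralog, was at 59.3, 59.1 and 59.4 CPM in controls, at 50.8, 58.5 and 51.9 CPM with the PHF12 siRNA and at 72.6, 70.5 and 71.9 CPM with the SUDS3 siRNA. ATG2B rose with the SUDS3 siRNA (0.27, SE 0.05, edgeR adjusted p = 7.56e-05), and so did GSKIP (0.25), which shares exonic bases on the opposite strand. Its small fall with the PHF12 siRNA (-0.14, edgeR adjusted p = 0.0422) was lost when any library but PHF12 siRNA library 2 was left out, with an adjusted p of up to 0.219.

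The WIPI relatives WDR45B and WDR45 were higher with the PHF12 siRNA than with the SUDS3 siRNA. WDR45B was at 133, 139 and 139 CPM in controls, at 177, 158 and 167 CPM with the PHF12 siRNA and at 137, 139 and 145 CPM with the SUDS3 siRNA, so the PHF12 siRNA libraries alone stood apart (log2 fold change 0.29, SE 0.04, edgeR adjusted p = 4.5e-07). FOXK2, which shares exonic bases on the opposite strand, fell with the PHF12 siRNA (-0.74). WDR45, also called WIPI4, was at 63.3, 63.2 and 65.0 CPM in controls, at 70.9, 72.7 and 70.1 CPM with the PHF12 siRNA and at 50.5, 60.0 and 55.2 CPM with the SUDS3 siRNA. The 3 groups did not overlap. WDR45 rose with the PHF12 siRNA (0.16, SE 0.05, edgeR adjusted p = 0.0215) and fell with the SUDS3 siRNA (-0.21, SE 0.05, 0.0023). The rise did not pass without control library 1 or 2 or PHF12 siRNA library 2, with adjusted p of 0.0616, 0.0768 and 0.0839. WDR45 shares exonic bases on its own strand with PRAF2, a gene at 13.7 CPM in controls that also rose with the PHF12 siRNA (0.33) and was also lower with the SUDS3 than with the PHF12 siRNA (-0.43). WIPI2, which recruits ATG16L1, rose with either siRNA (0.29 and 0.22), as did the lipid scramblase ATG9A (0.29 and 0.40), and the scramblase VMP1 rose with the PHF12 siRNA (0.17).

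The widest log2 differences between the knockdowns were those of ATG4A (1.56), the fusion gene TBC1D5 (-1.44) and MAP1LC3B (1.37). MAP1LC3B encodes LC3B, the ATG8 protein most used as an autophagosome marker (chromosome 16, 87383995 to 87404779, plus strand, GRCh38). Its control libraries were at 91.4, 97.0 and 98.2 CPM, the PHF12 siRNA libraries at 42.5, 42.3 and 41.3 CPM and the SUDS3 siRNA libraries at 104, 107 and 115 CPM. No group overlapped another. With the PHF12 siRNA, MAP1LC3B fell to 44.0% of control (log2 fold change -1.18, SE 0.05, edgeR adjusted p = 1.3e-20). It rose slightly with the SUDS3 siRNA (0.19, SE 0.05, edgeR adjusted p = 0.00156), and was 2.58-fold higher there than with the PHF12 siRNA (1.37, SE 0.05, edgeR adjusted p = 8.62e-23). FBXO31, which shares exonic bases on the opposite strand, was at 0.10 with the PHF12 siRNA (edgeR adjusted p = 0.297) and rose with the SUDS3 siRNA (0.35).

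ATG4A, a cysteine protease that trims ATG8 proteins before conjugation, followed the same order (chromosome X, 108091668 to 108154671, plus strand, GRCh38). It was at 34.5, 36.9 and 35.4 CPM in controls, at 16.0, 16.4 and 16.5 CPM with the PHF12 siRNA and at 46.8, 46.9 and 50.7 CPM with the SUDS3 siRNA, again with 3 separate groups. ATG4A fell to 45.7% of control with the PHF12 siRNA (log2 fold change -1.13, SE 0.07, edgeR adjusted p = 5.63e-16) and rose with the SUDS3 siRNA (0.43, SE 0.06, edgeR adjusted p = 1.01e-06). Between the knockdowns the difference was 2.96-fold (1.56, SE 0.07, edgeR adjusted p = 1.82e-20). The other ATG4 proteases had smaller values. ATG4B rose with either siRNA (0.20 and 0.27), and THAP4 on its opposite strand rose by 0.22 with the SUDS3 siRNA. ATG4C fell with the PHF12 siRNA (-0.20, edgeR adjusted p = 0.00841, and 0.108 without PHF12 siRNA library 1). With the SUDS3 siRNA ATG4C was at -0.14 (edgeR adjusted p = 0.0506). That value passed in 4 runs with 1 library left out and in 4 other alternatives, not in the rest. The knockdowns did not pass against each other for ATG4C (0.05, edgeR adjusted p = 0.507). ATG4D passed in no comparison.

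The E2-like enzyme ATG3, which hands ATG8 proteins to the lipid phosphatidylethanolamine, was lower in 1 group only. Its libraries were at 114, 111 and 118 CPM in controls, at 83.0, 85.0 and 85.0 CPM with the PHF12 siRNA and at 121, 115 and 123 CPM with the SUDS3 siRNA. ATG3 fell with the PHF12 siRNA (log2 fold change -0.43, SE 0.04, edgeR adjusted p = 1.93e-10), and its libraries overlapped the controls with the SUDS3 siRNA (0.07, SE 0.04, edgeR adjusted p = 0.196). ATG12, the ubiquitin-like protein joined to ATG5, fell with the PHF12 siRNA too, from 60.9 ± 3.46 to 48.9 ± 2.57 CPM (SD, n = 3; -0.32, edgeR adjusted p = 2.15e-05), and was at 61.1 ± 1.96 CPM with the SUDS3 siRNA. ATG16L1, which sets where conjugation takes place, was at 51.1, 48.8 and 49.7 CPM in controls, at 37.8, 38.9 and 40.8 CPM with the PHF12 siRNA and at 63.2, 57.8 and 60.9 CPM with the SUDS3 siRNA. Its 3 groups did not overlap, with a fall of -0.35 (SE 0.06, edgeR adjusted p = 5.5e-06) and a rise of 0.28 (SE 0.06, edgeR adjusted p = 8.65e-05). SLC35A5, which shares exonic bases with ATG3 on the opposite strand, was at -0.05 with the PHF12 siRNA and fell with the SUDS3 siRNA (-0.35).

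The remaining conjugation enzymes were measured at lower levels or passed in no comparison. ATG5, the partner of ATG12, and ATG7, the E1-like enzyme that activates both ATG12 and ATG8, passed in no comparison, with log2 fold changes from -0.12 to 0.15. ATG7 shares exonic bases on the opposite strand with VGLL4, which fell with the PHF12 siRNA (-0.93). ATG10, the E2-like enzyme for ATG12, had the lowest length-scaled level of the tested members and fell with the SUDS3 siRNA from 7.35 ± 0.611 to 5.41 ± 0.749 CPM (SD, n = 3), a log2 fold change of -0.44 (SE 0.14, edgeR adjusted p = 0.0119). That call rested on single libraries: the adjusted p was 0.0508 without control library 3 and 0.105 without SUDS3 siRNA library 2. ATG10 shares exonic bases on the opposite strand with RPS23, a ribosomal protein gene at 792 CPM in controls that also fell with the SUDS3 siRNA (-0.18).

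GABARAPL2 was the ATG8 gene with the highest length-scaled level. Its libraries were at 120.1, 123 and 123 CPM in controls, at 103, 111 and 116 CPM with the PHF12 siRNA and at 133, 146 and 142 CPM with the SUDS3 siRNA. The groups did not overlap, but the fall with the PHF12 siRNA was small (log2 fold change -0.15, SE 0.04, edgeR adjusted p = 0.00595) and did not pass without PHF12 siRNA library 1 (adjusted p = 0.0739). GABARAPL2 rose with the SUDS3 siRNA (0.20, SE 0.04, edgeR adjusted p = 0.000264). GABARAPL1, a close relative, rose with the SUDS3 siRNA from 56.6 ± 0.81 to 75.2 ± 3.39 CPM (SD, n = 3; 0.41, edgeR adjusted p = 9.69e-08) and was at 55.7 ± 3.61 CPM with the PHF12 siRNA (-0.02, edgeR adjusted p = 0.831). GABARAP passed in no comparison (0.21, 0.27 and 0.05). GABARAP lies on the same strand as an annotated locus, AC120057.2, that shares its exons and had no counts in controls. Reads of the pair cannot be told apart by position. How counting treated such reads is not in the sources used here. The level of GABARAP, its rank below GABARAPL2 and the sum over ATG8 genes may therefore be affected.

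Summed over the ATG8 genes, the recomputed level was 259.9 ± 8.18 TPM in controls, 210.3 ± 3.95 TPM with the PHF12 siRNA and 317 ± 16.6 TPM with the SUDS3 siRNA (SD, n = 3). The libraries of the 3 groups did not overlap. Most of the lower sum with the PHF12 siRNA came from MAP1LC3B, at 62.2 TPM in controls and 27.2 TPM with that siRNA. GABARAPL2 went from 139 to 124 TPM, GABARAPL1 from 47.9 to 46.8 TPM and GABARAP from 10.6 to 12.2 TPM. The whole conjugation step summed to 614 ± 12, 508 ± 8.41 and 702 ± 12.2 TPM in the same order of groups. Initiation summed to 337 ± 16.0, 396 ± 13.7 and 399.8 ± 3.52 TPM, so that both knockdowns were above the controls and overlapped each other. The fusion step was lowest in sum, at 97.2 ± 2.94, 95.0 ± 2.12 and 116 ± 1.73 TPM.

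**Figure D3:**
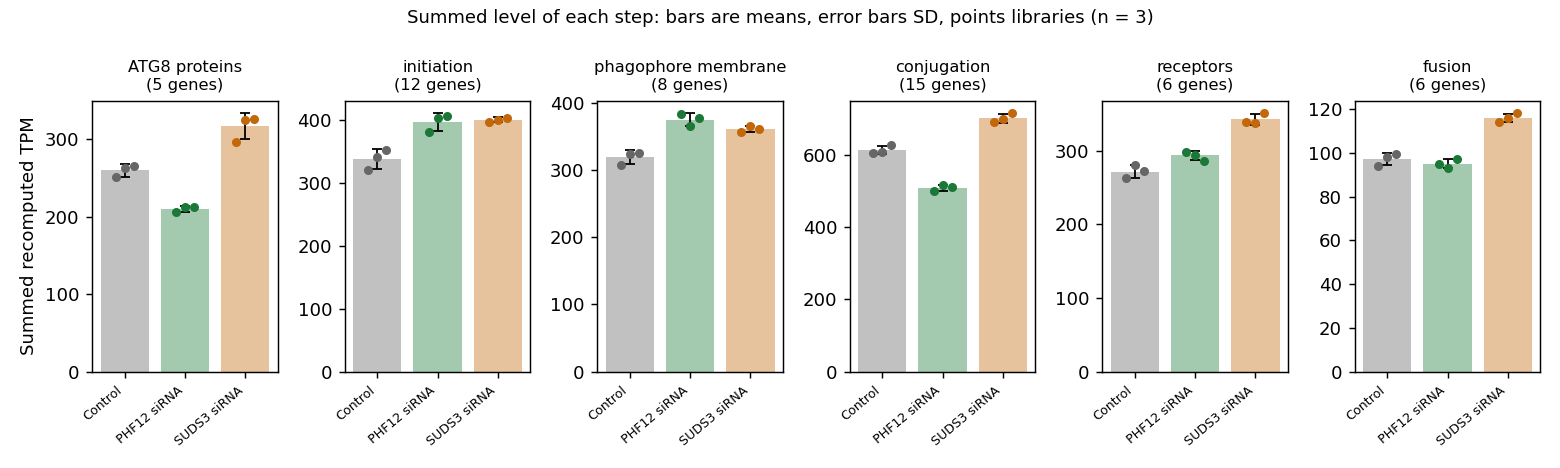
Summed recomputed TPM (vertical axis, from 0, with its own range in each panel) of the ATG8 genes and of each step in control, PHF12 siRNA and SUDS3 siRNA libraries. Bars are means, error bars SD and points the 3 libraries. ATG8 genes and the conjugation step are lowest with the PHF12 siRNA (210.3 and 508 TPM) and highest with the SUDS3 siRNA (317 and 702 TPM), and initiation is above control in both knockdowns.

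Cargo receptors mostly rose with the SUDS3 siRNA. SQSTM1 was at 201, 205 and 193 CPM in controls, at 215, 204 and 201 CPM with the PHF12 siRNA and at 236, 229 and 232 CPM with the SUDS3 siRNA. Only the last group stood apart (log2 fold change 0.22, SE 0.04, edgeR adjusted p = 4.57e-06). CALCOCO2, the NDP52 receptor for bacteria and mitochondria, was at 103, 111 and 105 CPM in controls, at 104, 96.5 and 92.1 CPM with the PHF12 siRNA and at 149.5, 139 and 159 CPM with the SUDS3 siRNA. It rose with the SUDS3 siRNA (0.49, SE 0.05, edgeR adjusted p = 1.99e-10). With the PHF12 siRNA its libraries overlapped the controls, and the fall (-0.12, edgeR adjusted p = 0.0449) was lost without control library 2 or 3, PHF12 siRNA library 2 or 3 or SUDS3 siRNA library 1 or 2, with an adjusted p of up to 0.269.

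OPTN, the optineurin receptor, was at 26.7, 28.4 and 27.5 CPM in controls, at 30.9, 30.0 and 30.4 CPM with the PHF12 siRNA and at 40, 39.8 and 40.1 CPM with the SUDS3 siRNA. It rose with the SUDS3 siRNA (log2 fold change 0.54, SE 0.06, edgeR adjusted p = 1.67e-08). Its PHF12 siRNA libraries lay above the controls without passing (0.15, edgeR adjusted p = 0.0878), though DESeq2 gave an adjusted p of 0.0383. CCDC3, which shares exonic bases with OPTN on the opposite strand, fell with either siRNA (-0.81 and -0.76). NBR1, a receptor that binds ubiquitin alongside p62, was the receptor with the largest rise with the PHF12 siRNA, from 116 ± 2.59 to 155 ± 5.08 CPM (SD, n = 3; 0.41, edgeR adjusted p = 9.89e-11), and was at 132 ± 4.57 CPM with the SUDS3 siRNA (0.18, edgeR adjusted p = 0.000344). TAX1BP1 rose with either (0.11 and 0.29; JAZF1 on its opposite strand fell by 0.37 with the PHF12 siRNA and rose by 0.37 with the SUDS3 siRNA), and WDFY3, the scaffold ALFY, rose with the PHF12 siRNA (0.20). The 0.11 of TAX1BP1 did not pass without control library 1 or PHF12 siRNA library 2, with adjusted p of 0.171 and 0.111.

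Fusion genes held the largest fall of any member with the SUDS3 siRNA. TBC1D5 encodes a GTPase-activating protein for RAB7 that binds LC3 and retromer (chromosome 3, 17157162 to 18444817, minus strand, GRCh38). It was at 21.0, 22.7 and 25.6 CPM in controls, at 18.8, 17.6 and 20.1 CPM with the PHF12 siRNA and at 7.06, 6.42 and 7.36 CPM with the SUDS3 siRNA. The 3 groups did not overlap. With the SUDS3 siRNA, TBC1D5 fell to 30.1% of control (log2 fold change -1.73, SE 0.10, edgeR adjusted p = 2.61e-16). It was also lower there than with the PHF12 siRNA (-1.44, SE 0.10, edgeR adjusted p = 1.51e-14). Its fall with the PHF12 siRNA (-0.29, SE 0.09, edgeR adjusted p = 0.013) did not pass without control library 3 or PHF12 siRNA library 2 (adjusted p = 0.123 and 0.0787). SATB1, which shares exonic bases with TBC1D5 on the same strand, fell with the PHF12 siRNA (-0.39), as TBC1D5 did, and rose with the SUDS3 siRNA (0.39).

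VPS41, VPS39 and VPS18 are subunits of HOPS, the complex that tethers autophagosomes and endosomes to lysosomes. VPS41 was at 62.6, 62.0 and 62.6 CPM in controls, at 43.5, 47.4 and 46 CPM with the PHF12 siRNA and at 73.7, 78.1 and 75.7 CPM with the SUDS3 siRNA, in 3 separate groups. It fell with the PHF12 siRNA (log2 fold change -0.45, SE 0.05, edgeR adjusted p = 6.5e-09), rose with the SUDS3 siRNA (0.28, SE 0.05, 2.34e-05) and differed by 0.73 between them (edgeR adjusted p = 1.45e-14). VPS18 was at 27.2, 28.6 and 28.0 CPM in controls, at 35.9, 32.1 and 35.7 CPM with the PHF12 siRNA and at 37.1, 34.8 and 34.9 CPM with the SUDS3 siRNA, so both knockdowns were above the controls (0.31, SE 0.07, edgeR adjusted p = 0.000439, and 0.35, SE 0.07, 6.66e-05). VPS39 rose with the SUDS3 siRNA (0.37) and was at -0.01 with the PHF12 siRNA. Of these HOPS subunits, VPS41 fell and VPS18 rose with the PHF12 siRNA.

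EPG5, a tether that binds LC3 and RAB7, was at 18.5, 22.2 and 22 CPM in controls, at 26.4, 27.0 and 27.5 CPM with the PHF12 siRNA and at 29.2, 29.2 and 28.4 CPM with the SUDS3 siRNA. All knockdown libraries were above the controls (log2 fold change 0.37, SE 0.08, edgeR adjusted p = 0.000257, and 0.47, SE 0.08, 5.92e-06). STX17, the SNARE of the autophagosome, passed in no comparison (0.04, -0.01 and -0.05). The plot of levels in each library shows 12 of the members described above.

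**Figure D4:**
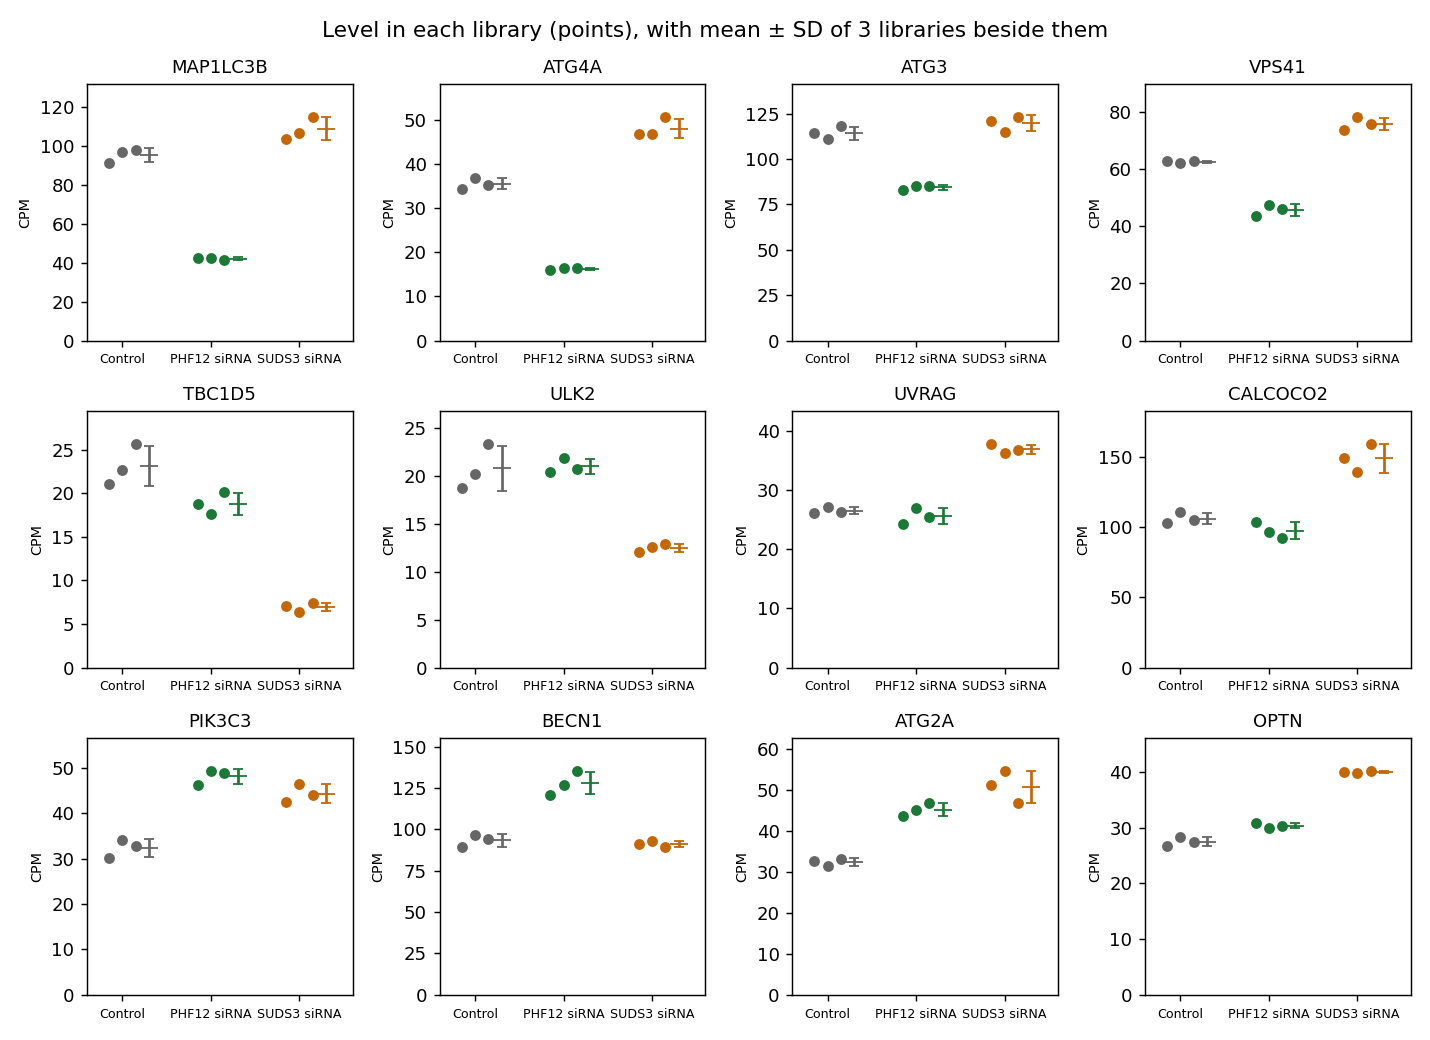
CPM (vertical axis, from 0) of 12 members in each control, PHF12 siRNA and SUDS3 siRNA library (points), with the mean and SD of 3 libraries beside them. MAP1LC3B falls from 95.5 to 42.1 CPM with the PHF12 siRNA and ATG4A from 35.6 to 16.3 CPM, and TBC1D5 falls from 23.1 to 6.95 CPM with the SUDS3 siRNA.

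An siRNA can lower transcripts other than its target through short matches of its seed in their 3' UTRs. The hexamers TACATT and AATCAC had come out of an earlier scan of these same fold changes, for falls with the SUDS3 and the PHF12 siRNA, so their presence is described here and supports nothing. The sequences of the siRNAs were not used here. Both were searched on the transcript strand in the longest annotated 3' UTR of each gene. All sites of both hexamers in TBC1D5, ULK2, MAP1LC3B and ATG4A, the members with the largest falls, are shown with 10 bases on each side, 5′ to 3′, the hexamer in capitals, from GENCODE 29 transcripts on GRCh38.
TBC1D5, chr3:17158360-17158385, minus strand: tgtttaattgTACATTttttaaatcc
TBC1D5, chr3:17158272-17158297, minus strand: agcagttaaaTACATTttgtatacat
TBC1D5, chr3:17158145-17158170, minus strand: tttagctttgTACATTacgtgtgaga
TBC1D5, chr3:17157491-17157516, minus strand: agaggccggaTACATTgaggatggca
TBC1D5, chr3:17160644-17160669, minus strand: gaaaagaccgAATCACaatttagaat
TBC1D5, chr3:17160631-17160656, minus strand: cacaatttagAATCACttttcctctg
ULK2, chr17:19775474-19775499, minus strand: atgcagaatgTACATTgatgcctgtg
ULK2, chr17:19774085-19774110, minus strand: taccagttcaTACATTcatgggttga
ULK2, chr17:19776138-19776163, minus strand: tattggagaaAATCACcctttccctt
MAP1LC3B, chr16:87403179-87403204, plus strand: cagttcatccAATCACagatcatgaa
MAP1LC3B, chr16:87404297-87404322, plus strand: atcacaggaaAATCACaattacacca
MAP1LC3B, chr16:87404530-87404555, plus strand: tgtgtattttTACATTatgtatattc
ATG4A, chrX:108153841-108153866, plus strand: tgactgagccAATCACtgtttctcag

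TBC1D5, with the largest fall with the SUDS3 siRNA, held 4 TACATT sites, the most of any member, in a 3' UTR of 3801 bases, and ULK2 held 2 in 2399 bases. MAP1LC3B held 2 AATCAC sites and ATG4A 1. The same genes held sites of the other hexamer: MAP1LC3B held 1 TACATT and rose with the SUDS3 siRNA, ULK2 held 1 AATCAC and was at 0.02 with the PHF12 siRNA, and TBC1D5 held 2 AATCAC and fell with the PHF12 siRNA by 0.29 on the log2 scale. As description only, genes with a hexamer also included genes that rose. PIK3C3, with 3 TACATT sites and 1 AATCAC site in 6693 bases, and EPG5, with 2 and 1, rose with either siRNA. ATG16L1 held neither and fell with the PHF12 siRNA, and ATG10, which fell with the SUDS3 siRNA, held no TACATT.

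Of the 46 tested members, 19 (41.3%) held TACATT, against 40.9% of 13767 protein-coding genes tested. With the SUDS3 siRNA 11 of these 19 rose and 2 fell, and of the 27 without it 18 rose and 2 fell. Among all protein-coding genes tested, 31.4% with TACATT and 17.2% without it fell. AATCAC was in 18 members (39.1%), against 30.7% of those genes. With the PHF12 siRNA 5 of these 18 rose and 6 fell, and of the other 28 members 15 rose and 5 fell. Among all protein-coding genes tested, 38.2% with AATCAC and 13.6% without it fell. The scan that gave both hexamers used these same fold changes, so the shares over all genes test nothing. Genes with a hexamer had longer 3' UTRs, with medians of 2894 against 939 bases for AATCAC and 2639 against 805 bases for TACATT. The part of 3' UTR length in these shares was not tested.

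TFEB and related factors drive lysosome and autophagy genes through promoter elements with the core TCACGTGA. That core and the shorter E-box CACGTG, which it contains and which reads the same on both strands, were searched in RefSeq promoters (250 bases before to 50 after the start, GRCh38.p14), of which 49 matched 38 of the 47 members by symbol. TCACGTGA was in 1 of the 49 (2.04%), against 0.98% of 35116 promoters, and CACGTG in 3 (6.12%), against 7.26%. The members with CACGTG were TBC1D5, ATG3 and ATG14. The single TCACGTGA is shown, in capitals, because it lies in the promoter of ATG3, one of the genes that fell with the PHF12 siRNA.
ATG3 promoter, chr3:112561941-112561968, minus strand: gagtctagtgTCACGTGAggccccggtg

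A wider list of 45 other autophagy genes was tested in full. With the PHF12 siRNA 10 rose (22.2%) and 10 fell (22.2%), with a median log2 fold change of -0.05, against 14.8% and 17.1% of all genes. By step, those rises and falls were 2 and 2 in initiation, 1 and 3 in the phagophore membrane and 2 and 0 in conjugation. Receptors had 0 and 4, and fusion 5 and 1. The members' split by step with this siRNA was thus not seen in the wider list. The SUDS3 siRNA gave 15 rises (33.3%), 11 falls (24.4%) and a median of -0.00, against 19.6% and 19.2% of all genes. These shares lie near those of the protein-coding genes of the members' level given above, and the difference between the wider list and the members was not tested. RAB7A, the GTPase of late endosomes that recruits HOPS and on which TBC1D5 acts, had a control level of 161 ± 4.01 CPM and rose with the PHF12 siRNA to 229 ± 1.89 CPM (log2 fold change 0.51, edgeR adjusted p = 3.89e-15) and with the SUDS3 siRNA to 265 ± 1.28 CPM (0.72, edgeR adjusted p = 3.17e-19). VPS11, a core subunit of HOPS, rose with either siRNA (0.38 and 0.51), as did SMCR8, a partner of C9orf72 (0.48 and 0.39). The mitophagy receptors BNIP3 (0.49, edgeR adjusted p = 7.03e-12) and BNIP3L (0.56, edgeR adjusted p = 1.78e-11) rose with the SUDS3 siRNA.

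In the wider list, the largest fall with the SUDS3 siRNA among the named genes was that of YKT6. YKT6, a SNARE of autophagosome fusion, fell with the SUDS3 siRNA from 119 ± 3.11 to 74.7 ± 3.23 CPM (SD, n = 3; log2 fold change -0.67, edgeR adjusted p = 5.82e-15). NCOA4, the ferritin receptor, fell with it by 0.51 on the log2 scale (edgeR adjusted p = 1.85e-11), and the kinase ULK3 by 0.37 (edgeR adjusted p = 7.99e-07). YKT6 and NCOA4 also fell slightly with the PHF12 siRNA (-0.11, edgeR adjusted p = 0.0438, and -0.12, 0.0401). That call of YKT6 was lost whichever library was left out (adjusted p up to 0.198). That of NCOA4 was lost without control library 2 or 3, PHF12 siRNA library 1 or 3 or SUDS3 siRNA library 1 or 2 (up to 0.231). With the PHF12 siRNA, TMEM41B, a scramblase that works with VMP1, fell from 54.3 ± 1.67 to 39.5 ± 2.12 CPM (-0.46, edgeR adjusted p = 5.85e-08). RAB1A, a GTPase of early secretory traffic, fell with the PHF12 siRNA (-0.26, edgeR adjusted p = 1.76e-07) and rose with the SUDS3 siRNA (0.28, edgeR adjusted p = 3e-08). SEC62, a receptor for endoplasmic reticulum, fell with either (-0.25 and -0.23).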

How the data were processed

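The authors deposited whole-number counts per gene and a table of TPM. Per the submitters' processing notes they used Trimmomatic 0.36, HISAT2 2.1.0, HTSeq and GRCh38. The library kit is stranded per the labels, with a strand setting for counting not given in the sources used here. Of 47 members, 18 share exonic bases with a tested gene on the opposite strand and 6 with a gene on the same strand. A named pseudogene exists for 8. Their counts can therefore include other reads or lack some of their own. Of counts from 1 to 50, 99.7% are multiples of 4, so 1 fragment may be worth 4 counts, and a repeat used counts divided by 4.

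Counts of 9 libraries (37962926 to 50946148 in total) were tested in edgeR 4.0.16 (R 4.3.3). Low counts were removed by filterByExpr (groups given, minimum count 10), TMM scaled the libraries, and a robust quasi-likelihood model had 3 group means. Benjamini-Hochberg adjustment ran over 18088 genes. Genes with an adjusted p under 0.05 passed. In 1 simulated set the fit recovered 29 of 50 genes changed 1.25-fold and 50 of 50 changed 3-fold, with 3 false calls. That set had few changed genes and 1 fixed dispersion, unlike these data. CPM are TMM-scaled. The length implied by each gene's deposited count and TPM had a Spearman correlation of 0.004 with its exonic length over 10069 genes, though it was constant between libraries. Deposited TPM were therefore used only within genes, and levels between genes were recomputed from counts and GENCODE 29 exonic lengths, a choice made after seeing the data.

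Members given library by library are the 8 with the largest change in each knockdown among those that passed without overlap of libraries, those called in opposite directions and the highest level of each step. Of the wider list, those with the 3 smallest p in each knockdown and direction are named. Members, lists, hexamers and this rule were chosen with earlier results of these data known. The phagophore membrane step was set apart from the 4 steps of the member list. Alternatives were RLE or upper-quartile scaling, DESeq2 1.42.0, other low-count filters, counts divided by 4, only the groups compared, a replicate block, limma 3.58.1 on log2(TPM + 1) and each library left out. No sample was left out of the tests, and no pair of libraries was identical. The correlation of same-numbered libraries' deviations from their group means was -0.0936 to 0.0915, so numbers were not taken to pair samples.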

Additional observations from a re-analysis of the deposited data

How the results depend on the processing

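No named gene's called change turned its direction under any alternative run. With upper-quartile scaling, members lower with the SUDS3 than with the PHF12 siRNA numbered 15 in place of 9 and members higher 17 in place of 21, and rises made up 41.2% of all genes called in that comparison, against 51.8% with TMM. That scaling also moved the share of rises among all calls with the PHF12 siRNA from 46.4% to 56.9%. The other counts of members stayed within 1.5 times. With 1 library left out, rises and falls ranged from 17 to 20 and 8 to 10 (PHF12 siRNA), 28 to 31 and 3 to 5 (SUDS3 siRNA), and 19 to 21 and 8 to 10 (SUDS3 against PHF12 siRNA). Leaving out a library kept 2 in each affected group.

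With the replicate number as a block, rises and falls were 20 and 11, 30 and 4, and 21 and 9, and of 171 results for single genes 1 changed its call (VMP1 with the SUDS3 siRNA, 0.11, adjusted p = 0.0344). The labels give no pairing beyond the number, and the correlations of same-numbered libraries cannot exclude one. The block changed no other call. Of the same 171 results, 5 lost and 2 gained a call with DESeq2, 13 lost and 3 gained one with limma on log2(TPM + 1), and 9 lost and 12 gained one with upper-quartile scaling.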
